A study of Mus musculus with 6 samples.

Results

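The HOX cluster genes were followed in Sertoli cells isolated from the testes of C57BL/6 mice at 20 days of age. All protein-coding rows of the deposited count table whose gene name is Hoxa, Hoxb, Hoxc or Hoxd followed by a number were taken, which gave 32 genes out of 28262 listed genes. RefSeq lists 39 mouse HOX genes, and the 7 others (Hoxa2, Hoxa11, Hoxb1, Hoxb13, Hoxc12, Hoxd1 and Hoxd12) were not analysed here. The 2 groups were Sertoli cells of Pa1F/F mice, which carry floxed Pa1 alleles (PA1flox/flox in the labels, used as control), and Sertoli cells of Amh-pa1-/- mice, in which the floxed Pa1 alleles were deleted by Cre recombinase under the Amh promoter (PA1-/- in the labels), with 3 libraries in each. Within the testis the Amh promoter drives Cre in Sertoli cells. Both groups were untreated, were cultured at 34 °C after isolation, and had unattached germ cells washed off before total RNA was taken for RNA-seq. PA1 is a subunit that joins the MLL3 and MLL4 histone H3 lysine 4 methyltransferase complexes, and the comparison asked which transcripts differ when Sertoli cells, the somatic nurse cells of the seminiferous tubule, lack it. Since Pa1 counts were not analysed here, genotypes were taken from the labels alone.

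HOX genes encode homeodomain transcription factors that give cells a position along the body axis. They lie in clusters in which the low-numbered genes sit at the 3′ end and act toward the head, and the high-numbered genes sit at the 5′ end and act toward the tail. Genes with the same number in different clusters are paralogues, descended from the same ancestral gene. Once set in the embryo, HOX expression is kept on or off by opposing chromatin complexes, the MLL family and its trithorax partners on the active side and Polycomb repressive complexes on the silent side, and adult fibroblasts and other mesodermal cells keep a HOX code of their place of origin. HOX proteins bind DNA together with TALE homeodomain partners, the PBX, MEIS and PREP (PKNOX) proteins.

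In these Sertoli cells the HOX transcripts came from a few genes of the middle and posterior paralogue numbers. In the control Hoxb9 was the highest per length, Hoxd9, Hoxd8, Hoxd10 and Hoxc6 came next, and the other genes of the HOX-C cluster were lower, while the HOX-A cluster was close to silent. Of the 32 HOX genes 11 had enough counts to be tested, and in Amh-pa1-/- cells 5 of them, all in the HOX-C and HOX-D clusters, passed an adjusted p of 0.05 and fell by more than 1 on the log2 scale, namely Hoxd10, Hoxd9, Hoxd8, Hoxc6 and Hoxc8. By the same rule 12% of all tested genes were called, 6.56% lower and 5.44% higher. Hoxb9 did not pass the test in either direction. No HOX gene was called higher.

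The levels behind this rest on libraries of 14051353 to 16231443 counts in the control and 13203757 to 15247587 counts in the knockout, where the floor of 3 counts stood at 0.185 to 0.229 CPM (a gene's counts scaled to the size of its library). The libraries of a group were unevenly spaced. Pa1F/F libraries 1 and 3, and Amh-pa1-/- libraries 1 and 2, had chi-square values, divided by their degrees of freedom, of 2.24 and 1.68, whereas pairs with the remaining library of the group differed by 18.7 to 31.6. All 6 entered the test as the replicates that the labels give, and the study's methods call them biological replicates without saying which animals or cultures each came from, so the p-values measure the spread between these libraries. Sertoli cell markers were present in every library, with 13 of 14 tested, a summed level of 16593 to 16933 CPM in the control and 10452 to 13169 CPM in the knockout. Of the 13, 4 were lower by the adjusted p and 1 higher, and Sox9, Wt1, Dhh and Fshr did not pass. Amh and Rhox8 did not pass either, but their knockout libraries were far apart. Amh had 12.6, 17.2 and 12.2 CPM in the control and 2.98, 3.29 and 24.8 in the knockout. Rhox8 had 9.47, 19.0 and 9.26 CPM against 2.25, 4.90 and 14.8. Clu, which held 68.7% to 79.1% of the sum, was lower (log2 fold change −0.69, adjusted p = 0.022), and Dmrt1 was higher (0.64, adjusted p = 0.00766). Without Clu the Sertoli sum was 3460 to 3755 CPM in the control and 3234 to 3276 CPM in the knockout, lower without overlap. Spermatocyte markers summed to at most 6.39 CPM and spermatid markers to at most 7.69 CPM in any library.

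Of the 32 HOX genes, 11 passed the filter on low counts (edgeR's filterByExpr by group, minimum count 10) and were tested. They were Hoxb4 and Hoxb9, Hoxc4, Hoxc5, Hoxc6, Hoxc8, Hoxc9 and Hoxc10, and Hoxd8, Hoxd9 and Hoxd10, so 2 of 8 listed HOX-B genes, 6 of 8 HOX-C genes, 3 of 7 HOX-D genes and 0 of 9 HOX-A genes. A gene could pass through the control group alone, so the counts over tested genes below describe those genes and are not independent evidence of a direction. Normalized counts are raw counts scaled to a common effective library size, the mean of edgeR's TMM values over the 6 libraries.

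HOX-D, on chromosome 2, held 3 tested genes, which stand next to each other and are known from limb, vertebral and urogenital patterning. Hoxd10 (ENSMUSG00000050368, chromosome 2, GRCm38 positions 74691924 to 74695105) had 87.9, 69.7 and 81.8 normalized counts in Pa1F/F libraries 1, 2 and 3, and 14.6, 16.9 and 43.1 in Amh-pa1-/- libraries 1, 2 and 3. The groups did not overlap, and the third knockout library stood above the other two. The log2 fold change was −1.67 (SE 0.40) with an adjusted p of 0.0185 (quasi-likelihood test of edgeR, Benjamini-Hochberg over 14919 genes, as for the adjusted p-values that follow).

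Hoxd9 (ENSMUSG00000043342, positions 74697727 to 74700208) had 154.0, 135.5 and 168.9 normalized counts in the control libraries and 64.4, 66.5 and 66.1 in the knockout libraries. The 3 knockout libraries were within a few counts of each other and far below the control. Its log2 fold change of −1.22 (SE 0.14, adjusted p = 0.00118) had the lowest adjusted p among the HOX genes. Hoxd8 (ENSMUSG00000027102, positions 74704615 to 74707933) had 154.9, 153.9 and 177.2 normalized counts against 79.1, 66.5 and 88.2, again without overlap. It fell by 1.05 on the log2 scale (SE 0.15, adjusted p = 0.00277 by edgeR).

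The promoters of these 3 genes, which moved together, are shown because all 3 were called. Each runs from 250 bases before to 50 after the RefSeq start in GRCm38.p6, plus strand, with CCAAT (or its reverse complement ATTGG) in capitals. They are Hoxd10 at chr2:74691641-74691940, Hoxd9 at chr2:74697513-74697812 and Hoxd8 at chr2:74704365-74704664.
Hoxd10: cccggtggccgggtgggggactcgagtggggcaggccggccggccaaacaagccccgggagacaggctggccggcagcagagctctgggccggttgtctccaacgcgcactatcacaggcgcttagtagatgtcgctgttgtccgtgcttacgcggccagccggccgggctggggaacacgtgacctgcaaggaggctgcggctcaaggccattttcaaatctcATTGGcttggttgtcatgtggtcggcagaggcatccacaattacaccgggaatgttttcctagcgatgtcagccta
Hoxd9: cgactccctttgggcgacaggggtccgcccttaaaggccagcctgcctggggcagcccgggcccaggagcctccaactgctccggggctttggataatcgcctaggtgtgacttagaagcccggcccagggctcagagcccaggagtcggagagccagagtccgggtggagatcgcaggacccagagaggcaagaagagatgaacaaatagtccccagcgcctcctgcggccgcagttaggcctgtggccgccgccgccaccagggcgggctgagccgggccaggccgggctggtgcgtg
Hoxd8: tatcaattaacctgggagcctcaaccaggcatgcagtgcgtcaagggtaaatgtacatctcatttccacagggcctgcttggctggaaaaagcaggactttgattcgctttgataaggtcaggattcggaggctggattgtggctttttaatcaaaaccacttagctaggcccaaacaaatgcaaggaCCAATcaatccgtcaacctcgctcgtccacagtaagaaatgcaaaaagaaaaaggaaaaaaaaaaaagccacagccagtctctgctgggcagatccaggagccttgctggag
The 4 motifs searched on both strands were TATAAA for the TATA box, CCAAT for the CCAAT box, TGANTCA for an AP-1 type site and TAATTA for a homeodomain core. The motif CCAAT was found once in Hoxd10, starting 26 bases before the start and on the minus strand, and once in Hoxd8, 62 bases before the start, and 37.4% of 32851 promoters of the same length hold it. The letters of the other motifs were not in these windows. Of all promoters, 13.6% hold the TATA box, 7.81% the AP-1 type site and 5.29% the homeodomain core as spelled here. The windows of Hoxd10 and Hoxd9 were rich in G and C (62.7% and 68.3%, with 22 and 20 CG pairs), that of Hoxd8 was not (46.7%, with 6), and the median over all promoters was 52.7% with 7 CG pairs. RefSeq promoter entries were found for 17 of the 32 HOX genes, 3 of them called, and there was none for Hoxc6 and Hoxc8.

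The other listed genes of HOX-D had 13 raw counts or fewer in every library. Hoxd11 had 4, 3 and 6 raw counts in the control and 0, 2 and 1 in the knockout, and Hoxd3 had 2, 5 and 3 against 0, 1 and 1, both without overlap between the groups. Hoxd4 had 8, 13 and 7 raw counts against 4, 10 and 0, and Hoxd13 had 0, 2 and 4 against 1, 0 and 1, and both overlapped. None of these 4 genes was tested, and differences of that size were not detectable at this depth. Hoxd3 and Hoxd4 share 38.5% and 52.0% of their exon bases with other annotated genes, so their counts are uncertain in any case.

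**Figure D1:**
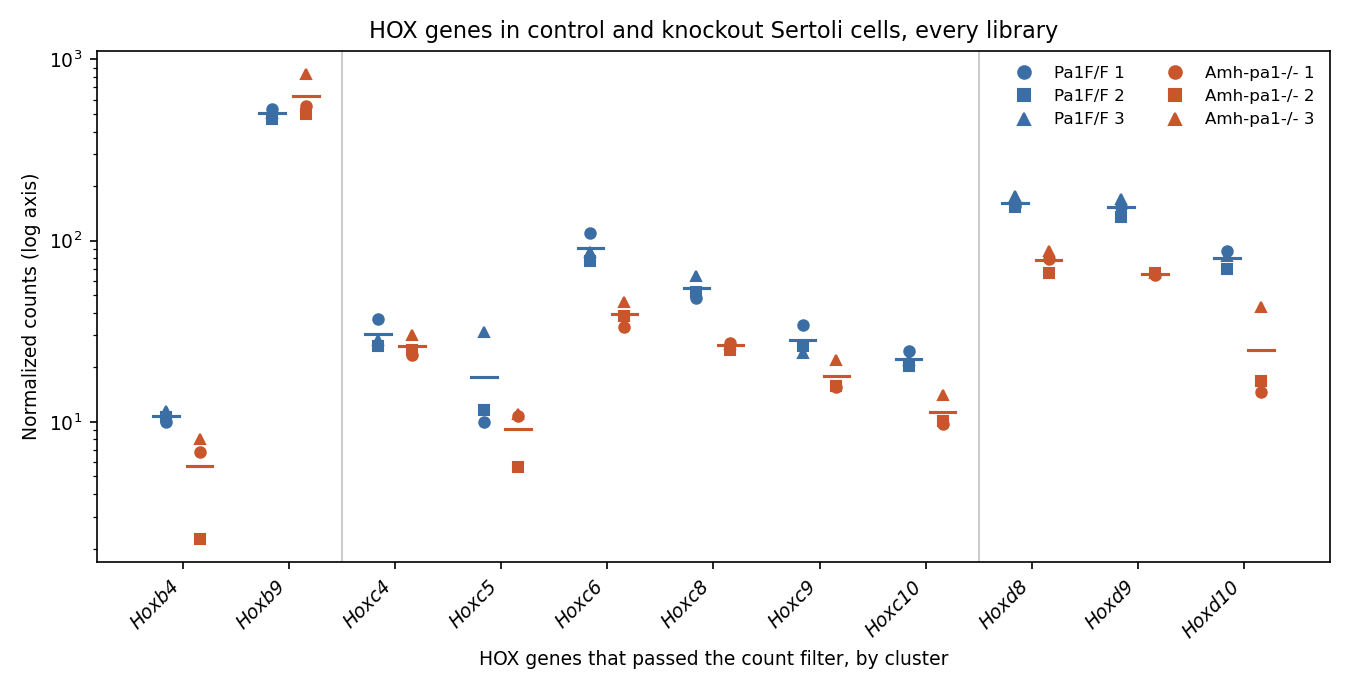
Normalized counts on a log axis for the 11 tested HOX genes, with 1 point per library, a horizontal line at each group mean, control libraries in blue and Amh-pa1-/- libraries in orange. Hoxb9 stood above all others at 467.5 to 830.7. The 3 HOX-D genes, Hoxb4, Hoxc6, Hoxc8, Hoxc9 and Hoxc10 were separated between the groups, as were 52.4% of all tested genes, and Hoxb9, Hoxc4 and Hoxc5 overlapped.

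HOX-C, on chromosome 15, held the most tested genes. Hoxc6 (ENSMUSG00000001661, positions 102998257 to 103011881), known for its part in thoracic patterning, had 110.5, 77.4 and 86.0 normalized counts in the control libraries and 33.2, 38.3 and 46.1 in the knockout libraries. The groups did not overlap, and the log2 fold change was −1.22 (SE 0.21, adjusted p = 0.00584 by edgeR). Hoxc8 (ENSMUSG00000001657, positions 102990607 to 102994111), which marks the thoracic level of the embryo, had 48.0, 52.3 and 64.0 against 27.3, 24.8 and 27.1. It fell by 1.05 on the log2 scale (SE 0.20, adjusted p = 0.00768), and its knockout libraries lay close together.

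Hoxc10 (ENSMUSG00000022484, positions 102966796 to 102971893), a lumbar-level gene, had 24.5, 20.3 and 22.0 normalized counts against 9.76, 10.1 and 14.0. The groups did not overlap and it passed the adjusted p alone, with a log2 fold change of −0.97 (SE 0.26, adjusted p = 0.0285), short of the fold of 1 on the log2 scale. Hoxc10 shares 8.11% of its exon bases with the model of Hoxc5, which runs through much of the cluster. Hoxc9 had 34.4, 26.1 and 24.1 against 15.6, 15.8 and 22.0, which did not overlap and did not pass (log2 fold change −0.66, adjusted p = 0.0959).

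Toward the 3′ end of HOX-C the differences were smaller or more variable. Hoxc4 had 37.2, 26.1 and 28.3 normalized counts against 23.4, 24.8 and 30.1, which overlapped (log2 fold change −0.23, adjusted p = 0.491). Hoxc5 had 9.97, 11.6 and 31.5 against 10.7, 5.63 and 11.02, where the third control library stood apart and the groups overlapped (log2 fold change −0.91, SE 0.55, adjusted p = 0.236). At the 5′ end, Hoxc11 had 5, 0 and 0 raw counts in the control and 0, 0 and 1 in the knockout, and Hoxc13 had 1, 5 and 6 against 1, 3 and 1, and neither was tested.

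HOX-B, on chromosome 11, was carried by Hoxb9. Hoxb9 (ENSMUSG00000020875, positions 96271457 to 96276595), a posterior gene of its cluster, had 534.6, 467.5 and 507.6 normalized counts in the control libraries and 550.6, 496.9 and 830.7 in the knockout libraries. Amh-pa1-/- library 2 lay within the control range, library 1 just above it and library 3 well above it. The log2 fold change was 0.32 (SE 0.19, adjusted p = 0.243), and it was 0.06 (adjusted p = 0.630) without that library. Hoxb4, known from blood stem cell growth, had 9.97, 10.6 and 11.5 against 6.83, 2.25 and 8.02, which did not overlap and did not pass (log2 fold change −0.87, adjusted p = 0.168).

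The 6 other listed HOX-B genes were not tested. Hoxb8, next to Hoxb9, had 3, 3 and 8 raw counts in the control and 14, 6 and 23 in the knockout, and the groups overlapped. Without the filter its log2 fold change was 1.67 (adjusted p = 0.0799), so among the HOX genes it had the lowest adjusted p of those with higher counts in the knockout. Hoxb7 had 19, 6 and 11 raw counts against 8, 3 and 7, Hoxb6 had 6, 10 and 7 against 3, 12 and 4, and Hoxb3 had 6, 13 and 14 against 9, 4 and 6, all overlapping.

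HOX-A, on chromosome 6, had no tested gene. Hoxa5 had 2, 2 and 3 raw counts against 0, 0 and 0, all at or under the floor of 3 counts, so no fold is given. Hoxa13 was at 0 in every control library and at 1 count in 1 knockout library. Over the 21 genes not tested in the 4 clusters, the highest count in any library was 23, and 13 of them never exceeded 5 counts.

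Levels between genes were compared per length, as CPM per kilobase of exon (RPKM), with exon lengths taken by gene ID from GENCODE M39, an annotation of GRCm39 and therefore of another build than the counts. By this measure Hoxb9 stood at 12.6 ± 0.85 RPKM in the control and 15.7 ± 4.495 in the knockout (SD, n = 3 libraries each). Hoxd9 followed at 4.72 ± 0.52 in the control, Hoxd8 at 3.74 ± 0.30, Hoxd10 at 2.92 ± 0.34 and Hoxc6 at 2.46 ± 0.46. In the control, the libraries of Hoxb9 did not overlap those of Hoxd9, and those of Hoxd9 (4.18 to 5.21) were above those of Hoxd8 (3.55 to 4.09). Hoxd10 (2.55 to 3.22) and Hoxc6 (2.08 to 2.98) overlapped. The place of Hoxc6 depended on the length used. With the length of the canonical transcript alone it stood at 3.71 ± 0.70 RPKM, and its control libraries (3.15 to 4.49) overlapped those of Hoxd8 (3.56 to 4.10), Hoxd9 (4.18 to 5.21) and Hoxd10. The next, Hoxc8, was at 1.23 ± 0.19.

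In the knockout the order began in the same way, and the genes after Hoxb9 stood at lower levels than in the control. Hoxd9 stood at 2.03 ± 0.034 RPKM, Hoxd8 at 1.80 ± 0.25, Hoxc6 at 1.06 ± 0.17 and Hoxd10 at 0.91 ± 0.58 (SD, n = 3). The libraries of Hoxd9 (1.99 to 2.05) and Hoxd8 (1.53 to 2.03) overlapped there, as did those of Hoxc6 and Hoxd10 and, with the canonical length, those of Hoxc6 and Hoxd8. Hoxb9 was thus the only HOX gene above 5.21 RPKM in any library of either group.

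Counted together, 5 of the 11 tested HOX genes were called lower and 0 higher in Amh-pa1-/- cells, where called means an adjusted p under 0.05 and a log2 fold change of at least 1 in size. With Hoxc10, 6 of the 11 passed the adjusted p alone, all lower, beside 17.1% of all tested genes lower and 18.2% higher (35.3% together). At an unadjusted p under 0.05, 7 were lower and 0 higher, and 0 were called higher by DESeq2 or limma-voom either. Over the other settings tried 0 to 2 were higher at that level. It was Hoxb8 with the Wald test of DESeq2, with no filter, with the close pairs of libraries summed and without Pa1F/F library 3, and Hoxb8 and Hoxb9 without Amh-pa1-/- library 2, with adjusted p-values of 0.0525 to 0.124. The libraries of the groups did not overlap for 8 of the 11 genes, all of them lower in the knockout, beside 52.4% of all tested genes in either direction and 26% lower. The median log2 fold change was −0.97 over the 11 HOX genes and 0.00 over all tested genes. Over all 32 listed genes, the mean normalized count was lower in the knockout for 26 and higher for 6, and among the 21 not tested for 16 and 5. The matching shares over all listed genes were not computed, and 13 of the 21 never exceeded 5 counts. No direction of the HOX genes as a family is therefore read from these counts.

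**Figure D2:**
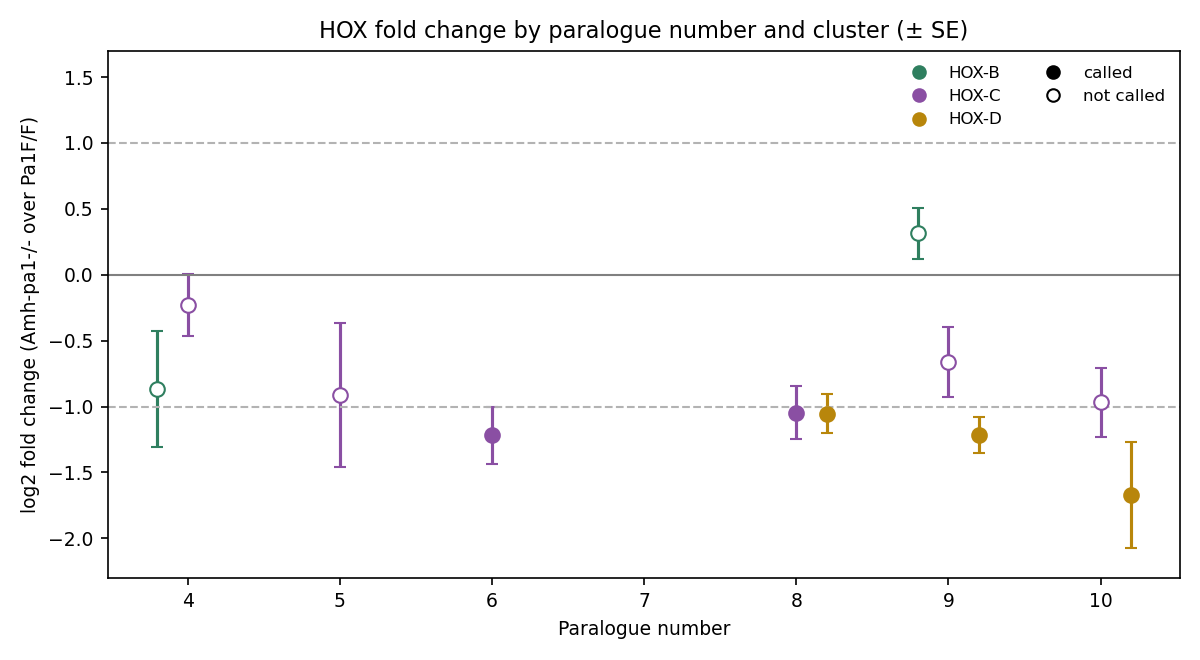
Log2 fold change of Amh-pa1-/- over Pa1F/F with its SE for the 11 tested HOX genes, by paralogue number and with the cluster as colour, where filled points were called and dashed lines mark a fold change of 1 on the log2 scale. Within paralogue number 9 the 3 clusters were spread from −1.22 (Hoxd9) over −0.66 (Hoxc9) to 0.32 (Hoxb9).

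Summed over clusters, the paralogue groups ranged widely, and differences between the groups were not tested. Paralogue group 10 (Hoxa10, Hoxc10 and Hoxd10) summed to 105 ± 12.5 normalized counts in the control and 37.3 ± 18.2 in the knockout (SD, n = 3), which is 35.5% of the control, without overlap. Group 8 was at 53.6% of the control (221 ± 24.4 to 119 ± 20.2) and group 6 at 46.6% (99.4 ± 16.2 to 46.3 ± 8.05), both without overlap. Group 9 was at 103.7% of the control and overlapped, since Hoxb9 holds most of it, although both Hoxd9 and Hoxc9 had lower counts in every knockout library. Group 4, in which Hoxc4 holds most counts, was at 71.6% of the control (52.5 ± 5.40 to 37.6 ± 2.94) without overlap.

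By cluster, the HOX-D counts summed to 409.6, 381.4 and 448.9 normalized counts in the control libraries and 163.0, 164.5 and 200.4 in the knockout libraries, a mean of 42.6% of the control. The HOX-C counts summed to 270.0, 218.7 and 262.2 against 121.1, 122.8 and 152.3, a mean of 52.8%. Neither sum overlapped between the groups. The HOX-B sum of 579.9, 514.0 and 563.2 against 591.6, 529.6 and 882.8 overlapped, and so did the sum of HOX-B without Hoxb9 (49.1 ± 5.63 against 41.9 ± 9.75) and the HOX-A sum (17.3 ± 5.06 against 12.2 ± 3.50).

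The sum of all HOX counts was 1233 ± 92.5 in the control and 988 ± 226 in the knockout and overlapped, while without Hoxb9 it was 730 ± 64.0 and 362 ± 47.4, or 49.6% of the control, without overlap. Hoxb9 weighed more in the knockout total. HOX-B held 44.8% of all HOX counts in the control and 67.7% in the knockout, HOX-D 33.4% and 17.8%, HOX-C 20.3% and 13.3%, and HOX-A 1.42% and 1.21%.

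**Figure D3:**
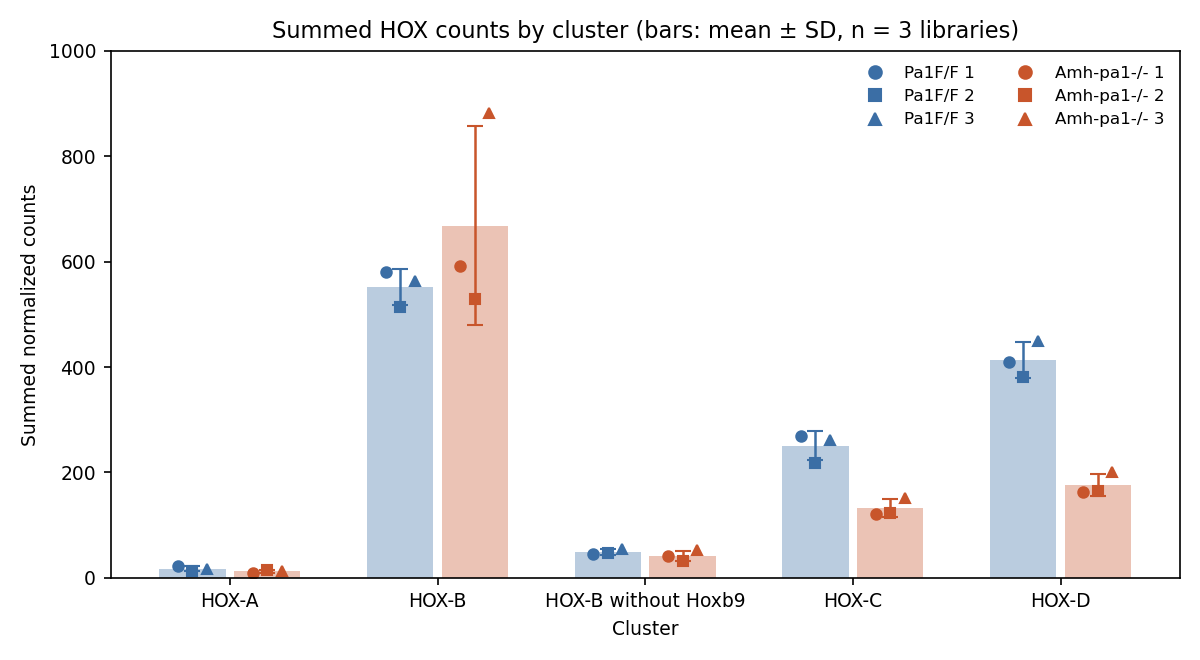
Summed normalized counts of the listed HOX genes by cluster, with 1 point per library and bars at the mean with the SD (n = 3 libraries a group). The HOX-C and HOX-D sums of all 3 Amh-pa1-/- libraries (121.1 to 152.3 and 163.0 to 200.4) lay below those of all 3 control libraries, and the HOX-B sum was highest in Amh-pa1-/- library 3 at 882.8.

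The clusters also hold other transcripts, mostly non-coding, with 23 rows of which 4 passed the filter. Hoxd3os1, an antisense RNA on the minus strand of HOX-D (chromosome 2, positions 74703248 to 74716130), had 15.4, 10.6 and 23.1 normalized counts in the control and 2.93, 2.25 and 1.002 in the knockout. It was called lower (adjusted p = 0.00613) and the groups did not overlap, but its knockout libraries held 3, 2 and 1 raw counts, at or under the floor of 3, so its fitted fold change depends on the prior count and is not given. Pooled over the libraries, 50 counts in the control and 6 in the knockout gave a 7.85-fold ratio of control to knockout, with an exact 95% interval of 3.36 to 22.4 that covers counting error only. Hoxd8 shares 15.05% of its exon bases with it, and the library kit does not mark strand, so reads in the shared stretch cannot be told apart. By GENCODE M39 (GRCm39), the source of all shares of exon bases given here, Hoxd9 shares no exon base with another gene. Nor do Hoxc6 and Hoxc8, and Hoxd10 shares 5.61%. Overlaps in the GRCm38 annotation used for counting were not examined.

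In HOX-B the lincRNA Gm53, upstream of Hoxb9, had 1023, 1163 and 1055 normalized counts against 953, 879 and 542, and did not pass (log2 fold change −0.45, adjusted p = 0.123). The lowest library was Amh-pa1-/- library 3, the one in which Hoxb9 was highest. The adjacent Mir196a-1 row had 88.8, 89.0 and 77.6 against 88.8, 79.996 and 47.1 (log2 fold change −0.24, adjusted p = 0.482), and the pseudogene Gm11539 did not pass either. Hotair, the lincRNA of HOX-C known for recruiting Polycomb proteins, had at most 2 counts in any library, and Hotairm1 of HOX-A at most 7. Mir10b of HOX-D had 2, 2 and 1 raw counts against 0, 0 and 0.

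The microRNAs of the clusters belong to families with a shared seed, and those of the rows above and their relatives are shown for that reason, with the seed (bases 2 to 8) in capitals, from RefSeq in GRCm38.p6. The mature miR-196a-5p is made from both HOX-B (chr11:96265187-96265208) and HOX-C (chr15:102973365-102973386), and miR-196b-5p from HOX-A (chr6:52230129-52230150). The mature miR-10b-5p is made from HOX-D (chr2:74726074-74726096) and miR-10a-5p from HOX-B (chr11:96317186-96317208).
mmu-miR-196a-5p: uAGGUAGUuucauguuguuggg
mmu-miR-196b-5p: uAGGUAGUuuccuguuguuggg
mmu-miR-10a-5p: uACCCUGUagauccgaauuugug
mmu-miR-10b-5p: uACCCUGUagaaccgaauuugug
The miR-196 family is known to target HOX transcripts, Hoxb8 among them. The counts above are RNA-seq reads on the gene rows, which can come from longer transcripts of the region, and are no measure of the mature microRNAs.

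The difference in HOX-C and HOX-D was set beside their neighbours outside the clusters, the 3 nearest protein-coding genes on each side of each cluster. Of these 24 genes 21 were tested, 3 were past the adjusted p as lower and 6 as higher, and 0 were called. Of all tested genes 17.1% were lower and 18.2% higher by adjusted p and 12% were called, and nothing particular to the neighbours is read from their counts. At HOX-C, Calcoco1, an autophagy receptor gene, had 2936, 3179 and 2775 normalized counts against 1798, 1715 and 1775 (log2 fold change −0.75, adjusted p = 0.000420), and on the other side Cbx5, which encodes the heterochromatin protein HP1 alpha, had 4133, 4092 and 4016 against 5093, 5288 and 5095 (0.34, adjusted p = 0.00294). Smug1, a uracil-DNA glycosylase gene on the same side, was also higher (0.30, adjusted p = 0.0443).

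At HOX-D, Lnpk (Lunapark, an endoplasmic reticulum gene) on the 5′ side had a log2 fold change of 0.49 (adjusted p = 0.0122), while Hnrnpa3 and Nfe2l2 on the 3′ side were at −0.33 (adjusted p = 0.00502) and −0.28 (adjusted p = 0.00898). At HOX-B, Cbx1, which encodes the heterochromatin protein HP1 beta, was at 0.35 (adjusted p = 0.0126). At HOX-A, Skap2 was at 0.29 (adjusted p = 0.0299) and Jazf1 at 0.31 (adjusted p = 0.0372). Neighbours past the adjusted p lay on both sides of 0 at HOX-C and HOX-D.

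The counts of the lists of partners and regulators that follow stand beside 35.3% of all tested genes past the adjusted p (17.1% lower and 18.2% higher) and 12% called, and describe the lists without setting them apart from other genes. Of the TALE partners of HOX proteins, 9 of 9 were tested, 3 were past the adjusted p as lower and 2 as higher, with 2 called lower and a median log2 fold change of −0.30. Pknox2, a PREP family member, had 631, 624 and 781 normalized counts in the control and 247, 237 and 434 in the knockout and fell by 1.15 on the log2 scale (SE 0.24, adjusted p = 0.0117). Without Amh-pa1-/- library 2 it was just short of the fold, at −0.98. Meis3 fell as well, from 240, 168 and 194 to 133, 127 and 117 (log2 fold change −0.68, adjusted p = 0.0160). Pknox1 and Meis1 went the other way. Pknox1 rose from 460, 495 and 392 to 616, 632 and 666 (0.51, adjusted p = 0.00920), and Meis1 from 272, 226 and 282 to 407, 363 and 313 (0.47, adjusted p = 0.0341).

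Of 11 PRC2 genes, all tested, 3 were past the adjusted p as higher and 1 as lower, a share close to the 35.3% of all tested genes, 0 were called, and the median log2 fold change was 0.08. Ezh2, the methyltransferase that lays down the silencing mark on histone H3 lysine 27, had 433, 464 and 411 normalized counts in the control and 851, 738 and 958 in the knockout (0.96, SE 0.11, adjusted p = 0.00121). Aebp2 and Suz12, both PRC2 subunits, were at 0.63 (adjusted p = 0.00116) and 0.35 (adjusted p = 0.00844), and the histone-binding Rbbp7 at −0.35 (adjusted p = 0.00901). Of 19 PRC1 genes, all tested, 4 were higher and 5 lower by adjusted p, 0 were called, and the median was 0.04. Cbx2, which reads the Polycomb mark, rose from 119, 95.8 and 109 to 179, 177 and 203 (0.79, SE 0.13, adjusted p = 0.00477).

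The other PRC1 genes with the widest differences were Phc2 (0.51, adjusted p = 0.0161), Pcgf6 (−0.49, adjusted p = 0.0116), Phc1 (0.47, adjusted p = 0.00677), Phc3 (−0.44, adjusted p = 0.00320) and Kdm2b (−0.32, adjusted p = 0.0447). On the activating side, of 9 genes of the MLL1 and MLL2 complexes and their partners 2 were higher and 1 lower by adjusted p, with 0 called. Psip1 (LEDGF, which tethers these complexes) was at 0.37 (adjusted p = 0.00472), Rbbp5 at 0.27 (adjusted p = 0.0408) and Ash1l at −0.25 (adjusted p = 0.0222), and the methyltransferase genes Kmt2a and Kmt2b did not pass. Of 5 genes particular to the MLL3 and MLL4 complexes, Kmt2c (MLL3) was lower, with 2381, 1944 and 2451 normalized counts against 1392, 1530 and 1409 (−0.65, SE 0.10, adjusted p = 0.00318), and Paxip1 (PTIP, the partner of PA1) was higher, with 483, 558 and 628 against 754, 770 and 863 (0.52, adjusted p = 0.0126). Kmt2d, Kdm6a and Ncoa6 did not pass.

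Of 9 genes known as inputs to HOX expression in the embryo (retinoic acid receptors, Cdx genes, Egr2 and Gdf11 among them), 6 were tested, and Cdx1, Cdx2 and Cdx4 were not analysed here. Gdf11, a TGF-beta family signal that switches on posterior HOX genes in the embryonic trunk, had 166, 165 and 167 normalized counts in the control and 58.6, 73.2 and 88.2 in the knockout and was called lower (log2 fold change −1.18, SE 0.17, adjusted p = 0.00279). The retinoic acid receptor genes Rara, Rarb and Rarg and the hindbrain factor gene Egr2 did not pass.

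**Figure D4:**
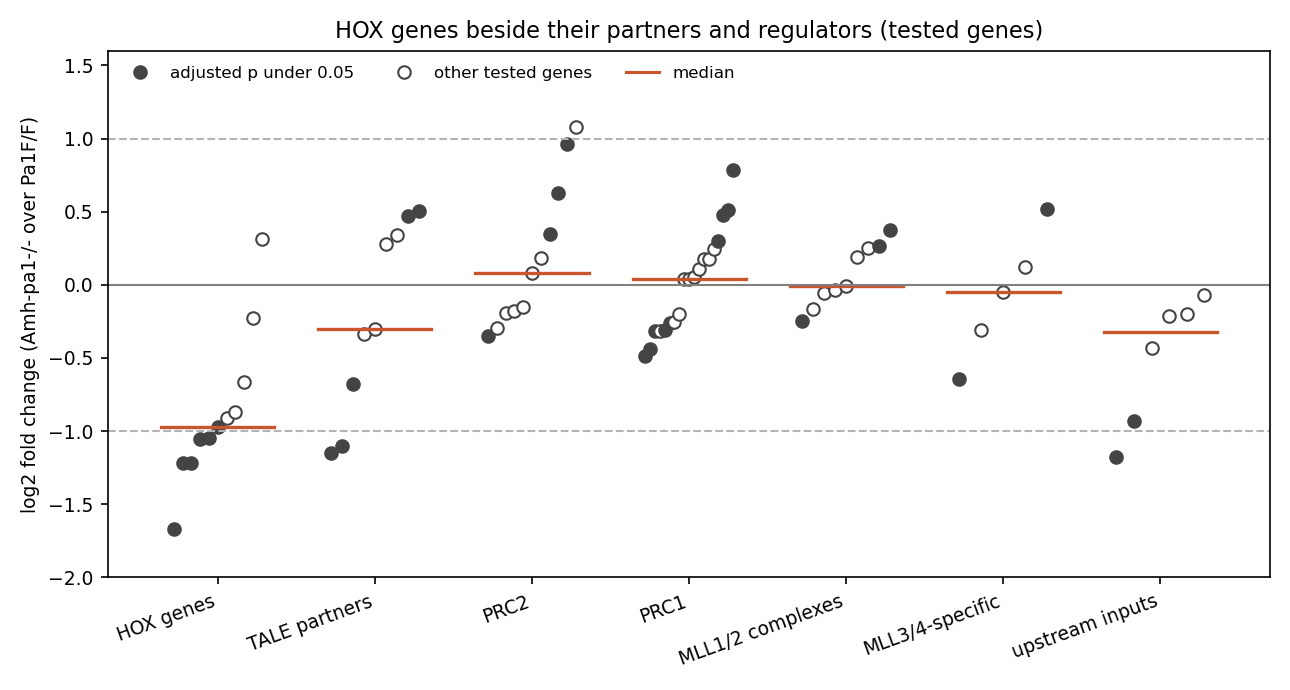
Log2 fold change of each tested gene for the HOX genes and the 6 lists of their partners, chromatin regulators and inputs, sorted within a list, with filled points past an adjusted p of 0.05 and a line at the median. The median of the HOX genes was −0.97, and those of the lists lay between −0.32 and 0.08.

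Markers of other cells in the testis also differed between the groups, and their part in the HOX difference was not tested. In bulk RNA, fewer cells of a type and less RNA per cell cannot be told apart. Leydig cell markers were lower in the knockout (793 to 910 CPM summed in the control, 165 to 287 in the knockout, 3 of 3 tested called lower), with Cyp17a1 and Insl3, which define mature Leydig cells, at 3 counts or fewer throughout. The macrophage sum was lower (122 to 136 CPM against 75.5 to 92.6, 5 of 7 tested called lower). Mrc1, which held 49.4% to 89.5% of it, did not pass (log2 fold change 0.17), and the remaining macrophage markers summed to 52.4 to 68.6 CPM in the control and 9.41 to 12.2 in the knockout. The endothelial sum, most of it Cdh5, was lower too (116 to 122 against 64.0 to 101, 1 of 4 tested called lower and 1 higher). The spermatogonial sum overlapped (193 to 221 against 104 to 200), but Uchl1, which did not pass, held 94.8% to 98.9% of it. Without Uchl1 the sum was 4.73 to 7.90 CPM against 2.29 to 5.37, and 3 of 4 tested markers were called lower.

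The sum of the peritubular myoid markers was higher (368 to 433 CPM against 1095 to 1620), and Acta2 held most of the knockout sum. Acta2 and Mylk were called higher, 2 of 6 tested, whereas Myh11, Des and Actg2 did not pass and lay below every control library in Amh-pa1-/- libraries 1 and 2 and above them in library 3 (Myh11 at 481 to 649 normalized counts in the control, against 216, 164 and 1605). The mesothelial sum was higher as well (6.64 to 11.5 CPM against 26.4 to 34.8, 2 of 4 tested called higher), as was that of the rete testis and efferent duct markers (6.03 to 6.64 against 11.9 to 15.3, 2 of 5 tested called higher and 1 lower). Stromal fibroblast markers, which belong to cells that keep a HOX code in many organs, overlapped between the groups (2779 to 3619 CPM against 1830 to 3424, 1 of 8 tested called lower, namely Pdgfra). Of the Sertoli cell list, Sox8 was called lower (log2 fold change −1.85), and so was Inhbb, which lay at the threshold of the fold. Amh-pa1-/- library 3 was the highest of the knockout libraries for every tested HOX gene except Hoxc8 and Hoxd9. It also had the highest sums of its group for Sertoli (13169 CPM), Leydig (287), endothelial (101), myoid (1620) and stromal (3424) markers. The same held for mesothelial (34.8 CPM), rete and efferent duct (15.3) and spermatocyte (6.39) markers, whereas its macrophage (75.5) and spermatogonial (104) sums were the lowest.

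Without Amh-pa1-/- library 3 the log2 fold change of Hoxd10 was −2.33 (adjusted p = 0.000327 by edgeR), and without 1 of 4 other libraries it lay between −1.39 and −1.66 with adjusted p-values of 0.0534 to 0.0658. Hoxd9 and Hoxc6 were called with any 1 library left out. With the close pairs of libraries summed, which leaves 2 per group, Hoxd9 alone was called (adjusted p = 0.0426), and the other 4 called genes had adjusted p-values of 0.0535 to 0.153.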

How the data were processed

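Total RNA of 6 libraries of isolated Sertoli cells was extracted with Trizol, made into libraries with a NEBNext Ultra RNA kit and sequenced on an Illumina instrument. Per the submitters' processing notes and the study's methods, the authors used HISAT2 2.1.0 to align reads to GRCm38 and HTSeq 0.6.0 to count them per gene, and the raw counts were deposited without normalization. The strand setting is not given in the sources used here. Columns of the authors' own comparison (means, fold changes, p-values and calls) were not used.

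Groups and replicate numbers came from the labels. Genes were filtered with filterByExpr (minimum count 10, minimum total 15), scaled by TMM and tested with the quasi-likelihood test of edgeR 4.0.16 in R 4.3.3 without further terms, where the study's methods name DEGseq. Adjustment was by Benjamini-Hochberg, over 14919 of 28262 genes, the SE is the log2 fold change over the square root of F, and called means an adjusted p under 0.05 with a log2 fold change of 1 or more in size. On simulated counts with 200 genes changed by 2 on the log2 scale, 98.5% of the 198 changed genes that were tested were recovered, among 14877 genes, and 1.02% of calls were unchanged genes. The floor was set at 3 counts, which a count of 0 allows, which covers counting error only, since reads without molecular identifiers are not independent molecules. TMM factors lay between 0.990 and 1.03. Exon lengths and shared exon bases came from GENCODE M39 (GRCm39). Cluster spans, promoters and microRNAs came from RefSeq tables of GRCm38.p6, and gene positions from the deposited table.

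The genes and lists were chosen with earlier results of these data known. Every HOX gene was accounted for, with the value in each library for those past the adjusted p and the 5 highest per length, and from each list of partners and regulators at most 6 genes past the adjusted p with the largest fold changes were named, as were neighbours and other RNAs of the clusters past it. Some genes that this rule takes in are not reported here. Other genes named, among them Hoxb8, Gm53, Hotair and the rows of microRNAs, were picked with their values in view. Other settings tried were scaling by DESeq2 1.42.0 size factors or by library size, the Wald test of DESeq2, limma-voom (limma 3.58.1), no filter or a filter of 10 counts in each library, a block for the replicate number, the close pairs of libraries summed, edgeR's glmTreat at a fold of 1 on the log2 scale, and each library left out. Figures were drawn with Python 3.11.15 and matplotlib 3.10.9.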

Additional observations from a re-analysis of the deposited data

How the results depend on the processing

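The 5 calls among the HOX genes (all lower, 0 higher) were also made with scaling by DESeq2 size factors or by library size, the Wald test of DESeq2, limma-voom, no filter and a filter of 10 counts in each library. Tested by glmTreat against a fold of 1 on the log2 scale, 0 HOX genes were called (2 were lower and 0 higher at an unadjusted p under 0.05), with 538 genes called in all. With the close pairs summed, which leaves 2 libraries a group, 1 was called, Hoxd9, and 1 passed the adjusted p alone, with 883 genes called in all. With 1 library left out, 2 to 6 HOX genes were called, all lower. It was 2 (Hoxc6 and Hoxd9) without Pa1F/F library 3 and also without Amh-pa1-/- library 2, where Hoxc8 and Hoxd8 fell short of the fold (log2 fold changes of −0.92 to −0.99) and Hoxd10 of the adjusted p, and 4 to 6 passed the adjusted p alone. The cause was not tested. Over 150 values of the 11 tested genes under the alternatives apart from glmTreat, 137 kept their direction and side of the threshold, 12 fell below it, 1 passed it and 0 reversed.

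The labels give both groups replicate numbers 1 to 3, but deviations from the group means of libraries with the same number correlated at 0.11, −0.16 and −0.18, so the numbers were not taken as pairs. Pa1F/F library 2 and Amh-pa1-/- library 3, which stand apart in their groups, deviated together (0.21), as did Pa1F/F libraries 1 and 3 with Amh-pa1-/- libraries 1 and 2 (0.11 to 0.15), and the remaining combinations stood at −0.18 to −0.14. The labels give no such grouping, and it was not fitted. With the replicate block 5 HOX genes were called lower and 0 higher, 5 passed the adjusted p alone (Hoxc10 did not), and 1558 genes were called in all.

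Of 60 genes outside the HOX list that passed the adjusted p and were followed under the alternatives, 44 did not pass with the close pairs summed, among them Sox8, Hoxd3os1, Pknox2 and Gdf11 (adjusted p-values of 0.0573, 0.0614, 0.114 and 0.0543). The calls of Inhbb, Mylk and Pdgfra lay near the fold threshold and those of Vwf and Ddx4 near the adjusted p threshold, and each was lost with some libraries left out.

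Depth limits what can be said of the 21 HOX genes not tested, none of which exceeded 23 counts, and of the HOX-A cluster as a whole. The log2 difference of the cluster sums kept its sign under each scaling and with each library left out, ranging from −1.34 to −1.17 for HOX-D, −1.04 to −0.86 for HOX-C, 0.02 to 0.42 for HOX-B and −0.74 to −0.27 for HOX-A.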
